A study of Mus musculus with 5 samples.

Results

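The 10 genes described here belong to the NRF2 and thiol antioxidant system of the mouse: Nfe2l2, Keap1, Slc7a11, Gclc, Gclm, Txn1, Txnrd1, Prdx1, Srxn1 and Nqo1. They were chosen by symbol, for their function, but with earlier results of these data known, so they are not an independent set. All 10 were found among the 19726 gene symbols that each library lists. RNA was measured in 5 libraries of cells labelled as CD4+ T cells, a class of lymphocyte named for its co-receptor. Replicates 2 and 3 came from tumors of MC38, a mouse colon carcinoma line that is grown by transplantation, and replicates 1, 2 and 3 from spleen, so that tumor has n = 2 and spleen n = 3. How the CD4+ cells were separated is not stated in the labels. All mice were 7 weeks old and wild type, of the C57/Bl6j strain. Whether mice were pooled, or each replicate was its own mouse, is not stated in the labels. The p-values below therefore rest on a spread between samples that may be technical.

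NRF2, the product of Nfe2l2, is a transcription factor that answers oxidants and reactive chemicals. At rest KEAP1 binds it and presents it to a CUL3 ubiquitin ligase for degradation. When cysteines of KEAP1 are modified, NRF2 accumulates, pairs with a small MAF protein and binds antioxidant response elements near genes that make glutathione and reduce thioredoxin. T cells depend on cystine uptake and glutathione to grow after activation, and macrophages use the same genes against the oxidants they make. Much of the control of NRF2 is on its protein, which RNA levels do not measure.

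The levels are TPM, a relative transcript abundance per length, which allows levels of different genes to be compared within a library. The sum over listed genes was 596116 and 569309 TPM in tumor, against 268987 to 359532 TPM in spleen, so a common factor can move all genes together. TPM keep no read depth, and no counting interval is given. The 95th percentile of olfactory receptor genes, which have no known role in T cells, was 7.59 to 10.7 TPM in tumor and 10.6 to 16.2 TPM in spleen libraries, used here as a background level. All 13 T cell markers were lower in both tumor libraries than in any spleen library, with a summed level of 259 to 333 TPM in tumor and 1030 to 1360 TPM in spleen. All 16 macrophage and monocyte markers were higher in both tumor libraries, with a summed level of 7300 to 8060 TPM in tumor and 62.6 to 80.0 TPM in spleen. Of these 16, 10 averaged under 1 TPM in spleen. Cd4 itself stood at 26.8 and 27.2 TPM in tumor and at 97.7 to 131 TPM in spleen. The 7 markers of epithelial tumor cells summed to 1.93 to 2.47 TPM in tumor and 2.52 to 3.34 TPM in spleen. The part that the macrophage signal has in the results below was not tested. In such bulk samples, fewer cells of a type and less RNA per cell cannot be told apart.

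Promoter sequence was read for 9 of the 10 genes from RefSeq windows on GRCm38.p6 that run from 250 bases before to 50 bases after a transcript's start. There were 11 windows, since Txnrd1 has 3 starts. The core of the antioxidant response element, TGACNNNGC on either strand, was found in 5 windows, 1 each of Nfe2l2, Gclm, Txnrd1, Srxn1 and Prdx1. Of all 32851 windows of this length 12.4% hold it. The AP-1 site TGANTCA, which can overlap the element, was found in the windows of Srxn1 and Prdx1 and in 7.81% of all windows. A match describes letters in these windows and is not evidence of a bound site.

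The 2 windows with both motifs are shown whole, because Prdx1 was the most abundant of the 10 genes and Srxn1 had the largest log2(TPM + 1) change between tissues. They are written 5′ to 3′ on the gene's strand, with both motifs in capitals. The Prdx1 window lies at chr4:116685349-116685648 on the plus strand, and its element starts 133 bases upstream of the transcript's start and overlaps an AP-1 site there, with a further AP-1 site starting 237 bases upstream. The Srxn1 window lies at chr2:152105274-152105573 on the plus strand, with AP-1 sites starting 102 and 45 bases upstream and the element core starting at base 29 of the transcript.
Prdx1: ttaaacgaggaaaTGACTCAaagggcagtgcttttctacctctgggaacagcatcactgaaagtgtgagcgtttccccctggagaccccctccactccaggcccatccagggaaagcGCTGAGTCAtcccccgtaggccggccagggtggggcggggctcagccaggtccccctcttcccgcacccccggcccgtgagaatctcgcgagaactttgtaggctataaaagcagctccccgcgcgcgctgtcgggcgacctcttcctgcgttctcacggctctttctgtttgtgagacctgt
Srxn1: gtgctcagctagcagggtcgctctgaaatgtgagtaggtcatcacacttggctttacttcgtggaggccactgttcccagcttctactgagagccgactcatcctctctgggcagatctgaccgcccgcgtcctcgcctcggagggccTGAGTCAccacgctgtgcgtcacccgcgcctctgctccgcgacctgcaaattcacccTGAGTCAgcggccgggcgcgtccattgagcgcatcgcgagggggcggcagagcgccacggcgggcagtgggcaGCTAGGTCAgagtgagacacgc
The site 45 bases upstream in Srxn1 is followed by the bases GC and so also matches a wider form of the element, TGANNNNGC, searched after these windows had been seen. That wider form is in 41.3% of all windows and in those of 7 of the 9 genes.

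For the other 3 genes with a core match, the bases within 15 of it are given, with the match in capitals. They are shown so that the element's variable bases can be set against those of Prdx1. In Gclm (window chr3:122245307-122245606, plus strand) the match starts 134 bases upstream, in Txnrd1 (its second window, chr10:82858956-82859255, plus strand) 92 bases upstream, and in Nfe2l2 (chr2:75704614-75704913, minus strand) 240 bases upstream, near the window's edge.
Gclm: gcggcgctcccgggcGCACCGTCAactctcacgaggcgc
Txnrd1: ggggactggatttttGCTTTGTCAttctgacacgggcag
Nfe2l2: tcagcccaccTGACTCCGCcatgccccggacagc
On the strand where each reads TGACNNNGC, the matched bases were TGACTCAGC in Prdx1, TGACCTAGC in Srxn1, TGACGGTGC in Gclm, TGACAAAGC in Txnrd1 and TGACTCCGC in Nfe2l2. The windows of Keap1, Txn1, Nqo1 and Slc7a11 held no match to the core, which says only that these letters are not in those windows.

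The question of this comparison is how RNA in CD4+ samples of a tumor differs from that in spleen. In the deposited TPM, 8 of the 10 genes were called higher in tumor, none was called lower, Gclc was not called and Nqo1 was too low to be tested. Calls are from limma on log2(TPM + 1), at an adjusted p below 0.05 over the 12979 genes that averaged 1 TPM or more. Among all genes tested, 40.9% were called higher and 18.1% lower. Both tumor libraries lay above all spleen libraries for 8 of the 9 tested genes, against 46.6% of all genes tested. The median log2 change was 2.67 over the 9 tested genes, beside 0.23 over all genes tested, and 2.17 over all 10, beside -0.03 over all genes listed. Srxn1 passed the filter on low values only through its tumor level. Together the 10 genes made up 949 and 1070 TPM in the tumor libraries, or 0.159% and 0.189% of the listed total, and 134, 159 and 147 TPM in the spleen libraries, or 0.0441% to 0.0502%. A single gene, Lars2, held 19.5% and 9.81% of the listed total in tumor and 17.4% to 25.2% in spleen, so these shares move with it.

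**Figure D1:**
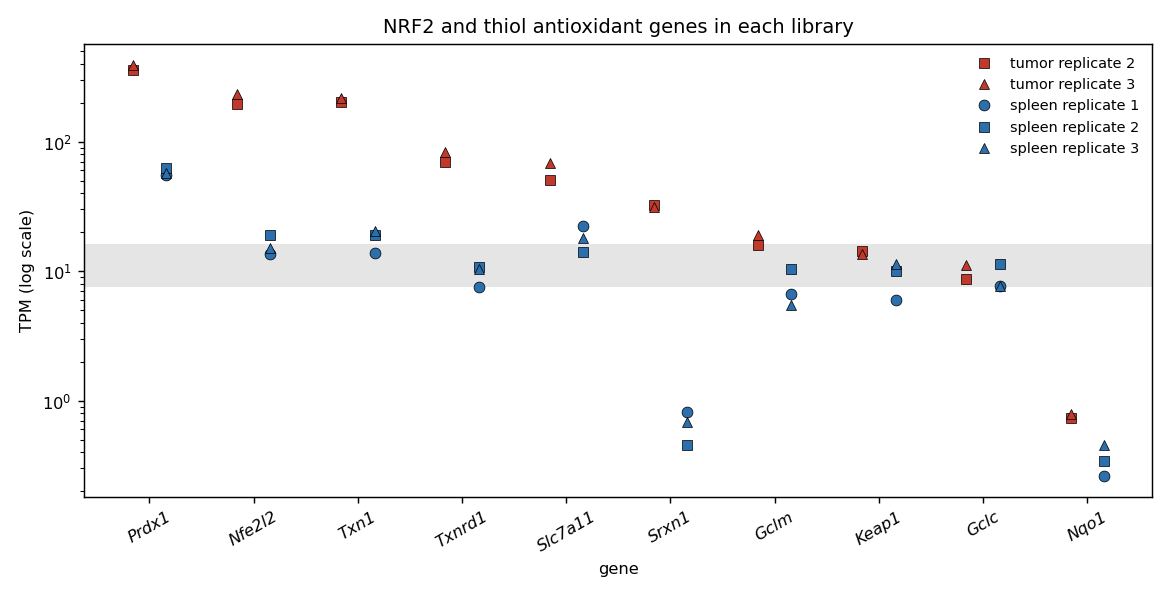
TPM (log scale) of the 10 genes in each of the 5 libraries, ordered by their tumor mean, with tumor in red and spleen in blue and 1 point per library; the grey band spans the 95th percentile of olfactory receptor genes over the libraries (7.59 to 16.2 TPM). Prdx1, Nfe2l2 and Txn1 lie highest in tumor, at 194 TPM or more, Gclc overlaps between tissues, and Nqo1 stays under 1 TPM in every library.

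The genes of the transcription factor and of its inhibitor both rose in the deposited TPM, the call for the inhibitor resting on single libraries and on the scaling. Nfe2l2 (chromosome 2, 75675513 to 75704641, minus strand) had 194 and 234 TPM in the tumor libraries, against 13.5, 19.0 and 15 TPM in the spleen libraries. Both tumor values lay far above every spleen value, and 2 of the 3 spleen values were above the background level of their library. The mean was 214 ± 28.6 TPM in tumor (SD, n = 2) and 15.9 ± 2.83 TPM in spleen (SD, n = 3), and the log2 change was 3.68 ± 0.21 (SE, limma, with an adjusted p of 8.9e-21). Keap1 (chromosome 9, 21229730 to 21239361, minus strand) had 14.4 and 13.5 TPM in tumor and 5.95, 10.1 and 11.3 TPM in spleen. Its tissues did not overlap, but the gap between the nearest libraries was smaller than the spread within spleen, and no spleen value passed the background level. Its log2 change was 0.61 ± 0.22 (limma adjusted p = 0.017). Keap1 was no longer called when spleen replicate 1 (adjusted p = 0.17), tumor replicate 2 (0.11) or tumor replicate 3 (0.055) was dropped. Its log2 change was -0.25 after scaling to equal totals, and -0.32 where those totals omitted the top 20 genes.

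The cystine importer and the modifier of glutathione synthesis rose, and the catalytic subunit of that synthesis was not called. Slc7a11 (chromosome 3, 49892526 to 50443614, minus strand) encodes xCT, the light chain that exchanges cystine for glutamate. It had 50.8 and 68.2 TPM in tumor and 22.3, 14 and 18.2 TPM in spleen, with both tumor libraries above every spleen library. Its log2 change was 1.67 ± 0.22 (limma adjusted p = 4.4e-09). The level of Slc7a11 is uncertain: 1 of its 5 annotated transcripts shares up to 375 bases at 95% identity or more with 9 other genes, alpha tubulin genes among them, between which reads could be split. Of those, Tuba1a had 29.0 and 30.9 TPM in tumor and 21.8 to 27.0 TPM in spleen, Tuba1b had 164 and 189 TPM in tumor and 50.2 to 57.4 TPM in spleen, and Tuba1c 171 and 166 TPM in tumor and 8.24 to 9.40 TPM in spleen.

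Gclm (chromosome 3, 122245557 to 122270732, plus strand), the modifier subunit of glutamate-cysteine ligase, makes that enzyme more efficient and less sensitive to feedback by glutathione. It had 15.8 and 19.0 TPM in tumor and 6.61, 10.4 and 5.47 TPM in spleen. The tissues did not overlap, and all 3 spleen values lay under the background level. Its log2 change was 1.15 ± 0.22 (limma adjusted p = 1.4e-05), and the call was lost with equal totals, at a log2 change of 0.30 (adjusted p = 0.20). Gclc (chromosome 9, 77754535 to 77794485, plus strand), the catalytic subunit, had 8.65 and 11.1 TPM in tumor and 7.71, 11.3 and 7.68 TPM in spleen. The tissues overlapped, and the log2 change of 0.15 ± 0.21 was not called (limma adjusted p = 0.55). With equal totals Gclc was called lower at -0.69, as were 51.4% of all genes tested. Scaled on T cell markers it was called higher at 1.96, as were 12658 of all 13498 genes tested. Other annotated genes overlap Nfe2l2, Keap1, Gclm, Txnrd1 and Slc7a11, among them Eid3 on the same strand as Txnrd1, and no source used here says how reads were assigned there.

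Txn1, Txnrd1, Prdx1 and Srxn1, the cytosolic thioredoxin and peroxiredoxin genes of the 10, rose in tumor. Txn1 (chromosome 4, 57943373 to 57956411, minus strand), the small cytosolic protein that reduces disulfides, had 202 and 219 TPM in tumor and 13.8, 19.2 and 20.5 TPM in spleen, a log2 change of 3.51 ± 0.21 (limma adjusted p = 6.5e-20). Txnrd1 (chromosome 10, 82833951 to 82897712, plus strand), the selenoenzyme that recharges thioredoxin with electrons from NADPH, had 70.3 and 83.4 TPM in tumor and 7.5, 10.8 and 10.4 TPM in spleen, a log2 change of 2.89 ± 0.21 (limma adjusted p = 8.2e-17). For both genes the lowest tumor library was several times the highest spleen library. Prdx1 (chromosome 4, 116685544 to 116700822, plus strand) encodes a peroxiredoxin, which reduces hydrogen peroxide and is then itself reduced by thioredoxin. It had 360 and 394 TPM in tumor and 55.3, 63.1 and 57.0 TPM in spleen, a log2 change of 2.67 ± 0.20 (limma adjusted p = 3.8e-16). It was above the background level in every library, as Slc7a11 was. Transcripts of Prdx1 and Txn1 share 300 or more bases at 95% identity or more with 2 and 1 other annotated genes. The libraries list none of those other genes, and the levels of Prdx1 and Txn1 are uncertain to that extent.

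Srxn1 (chromosome 2, 152105516 to 152111376, plus strand), the sulfiredoxin that repairs overoxidized peroxiredoxins, showed the largest log2 change of the 9 tested genes with a pseudocount of 1 TPM. It had 32.6 and 31.2 TPM in tumor, against 0.813, 0.452 and 0.680 TPM in spleen. Both tumor values were above the background level and all spleen values far under it. The mean was 31.9 ± 0.98 TPM in tumor (SD, n = 2) and 0.65 ± 0.18 TPM in spleen (SD, n = 3), a log2 change of 4.32 ± 0.21 (limma adjusted p = 8.2e-24) on a scale that understates the change of low genes. With a pseudocount of 10 TPM it was 1.98, behind Nfe2l2 (3.11), Txn1 (2.99), Prdx1 (2.50) and Txnrd1 (2.15). Nqo1 (chromosome 8, 107388225 to 107403206, minus strand), a quinone reductase often used as a readout of NRF2 activity, stayed near zero. It had 0.737 and 0.783 TPM in tumor and 0.262, 0.345 and 0.452 TPM in spleen. The tissues did not overlap, but every value was under the background level, and the gene was not tested. With no filter on low values its log2 change was 0.38 (limma adjusted p = 0.048).

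The order of levels differed between the tissues. In tumor, Prdx1 was followed by Nfe2l2 and Txn1, whose ranges overlapped, and then by Txnrd1, Slc7a11, Srxn1, Gclm, Keap1, Gclc and Nqo1, each below the range of the one before it. In spleen, Prdx1 stood apart, followed by Slc7a11, Txn1 and Nfe2l2, in which each range overlapped the next. Txnrd1, Keap1, Gclc and Gclm formed a second such run at means of 7.5 to 9.54 TPM, and Srxn1 and Nqo1 came last. The means of that second run lay under the background level of the spleen libraries, 10.6 to 16.2 TPM. Prdx1 alone made up 37.9% and 36.7% of the 10 genes' TPM in the tumor libraries and 38.9% to 41.3% in the spleen libraries.

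Ratios of partner genes within a library do not move with the scaling of that library, and 5 such ratios were compared. Nfe2l2 per Keap1 was 13.5 and 17.3 in tumor and 2.27, 1.89 and 1.33 in spleen, a difference of 3.09 on the log2 scale. The spleen values of Keap1 were all under the background level, and 2 of 3 of Nfe2l2 were above it. The spleen ratios of this pair are therefore uncertain. Gclm per Gclc was 1.83 and 1.71 in tumor and 0.857, 0.925 and 0.712 in spleen, so the modifier was above the catalytic subunit in both tumor libraries and below it in all spleen libraries. No spleen value of Gclm, and only 1 of 3 of Gclc, was above the background level, so the spleen ratios are uncertain. Srxn1 per Prdx1 was 0.0906 and 0.0792 in tumor and 0.0147, 0.00716 and 0.0119 in spleen, a difference of 2.97 that became 1.66 with 1 TPM added to both values. The spleen values of Srxn1 were all under the background level, so the spleen ratios of this pair are uncertain too.

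The remaining ratios were lower in tumor. Txnrd1 per Txn1 was 0.347 and 0.380 in tumor and 0.543, 0.560 and 0.506 in spleen, a difference of -0.56 on the log2 scale. Only 1 of 3 spleen values of Txnrd1, and 2 of 3 of Txn1, were above the background level, so these spleen ratios are uncertain. Slc7a11 per Slc3a2, the gene of the heavy chain CD98 that carries xCT and several other transporters to the membrane, was 0.122 and 0.155 in tumor and 1.25, 0.753 and 0.935 in spleen, a difference of -2.80. None of the 5 ratios overlapped between tissues. The exact permutation test, made two-sided by doubling the smaller 1-sided p, gave p = 0.2 for each (adjusted p = 0.2 over the 5). Computed in this way, it can give no smaller value with 2 libraries against 3. With only 10 arrangements, these differences could not pass a threshold of 0.05.

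**Figure D2:**
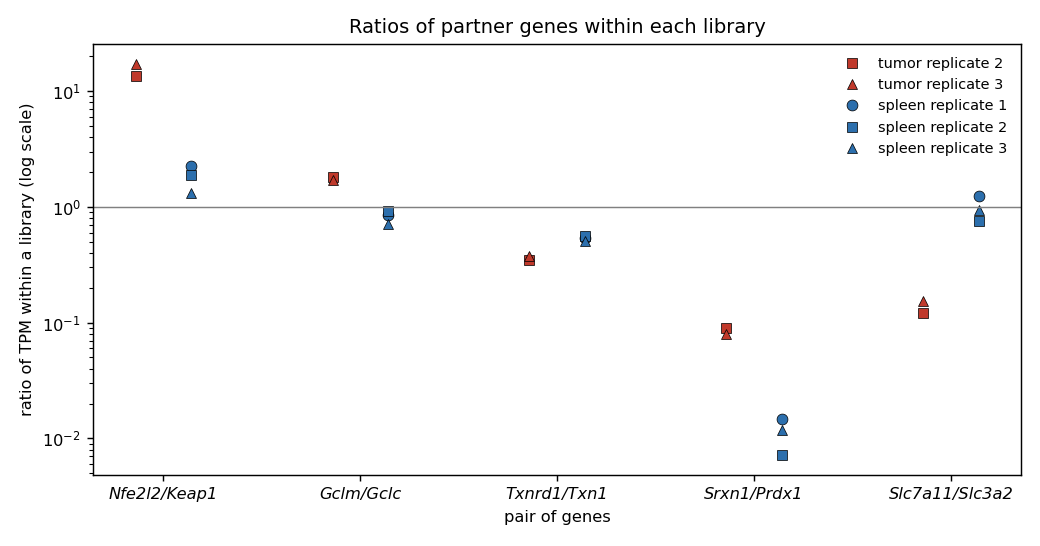
Ratio of the TPM of 2 partner genes within each library (log scale), tumor in red and spleen in blue, 1 point per library. The ratios Nfe2l2/Keap1, Gclm/Gclc and Srxn1/Prdx1 are higher in both tumor libraries, and Txnrd1/Txn1 and Slc7a11/Slc3a2 lower, with no overlap.

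The choice of scaling set the direction of the smallest changes. The median log2 change of all genes tested was 0.23 in the deposited TPM, 0.16 by median ratios, -0.33 by the upper quartile, -0.56 by equal totals and -0.62 by totals that omitted the top 20 genes. It was 1.89 when libraries were scaled on the 13 T cell markers. Srxn1, Nfe2l2, Txn1, Txnrd1, Prdx1 and Slc7a11 were called higher under each of these scalings. Among all genes tested, 12658 of 13498 were called higher when scaled on T cell markers, and 20.4% with equal totals. Relative to the median of all genes in the same fit, Nfe2l2 stood at 3.31 to 3.71, Prdx1 at 2.29 to 2.74 and Slc7a11 at 1.31 to 1.69. Gclm stood at 0.85 to 1.08 and Keap1 at 0.30 to 0.54 above that median. Gclc stood between -0.13 and 0.07.

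**Figure D3:**
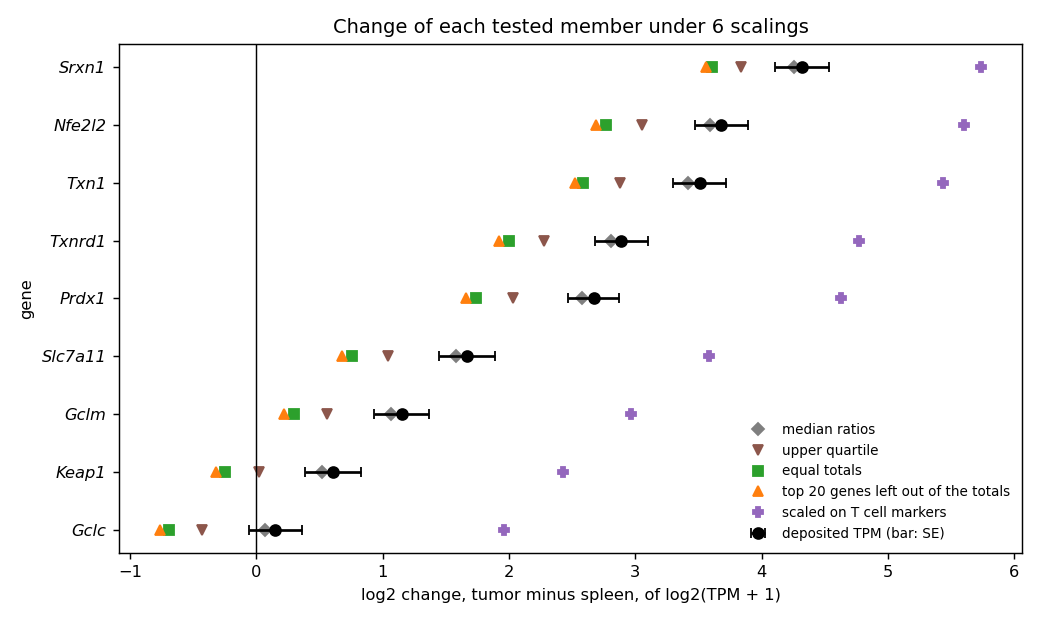
Log2 change, tumor minus spleen, of the 9 tested genes in the deposited TPM (black, with SE, n = 2 and 3) and under 5 other scalings (coloured marks). Srxn1, Nfe2l2, Txn1, Txnrd1, Prdx1 and Slc7a11 stay above 0 under each, whereas Keap1 falls to -0.32 and Gclc to -0.76 with the top 20 genes left out.

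Most genes that regulate NRF2, or compete with it, were called higher in the deposited TPM. Of 17 such genes, all tested, 12 rose and 2 fell, and 3 were not called. Rises were 70.6% and falls 11.8% of the 17, beside 40.9% and 18.1% of all genes tested. The median log2 change of the 17 was 1.06, beside 0.23 over all genes tested. Bach1, a repressor that competes with NRF2 at its elements and is released by heme, had 94.5 and 114 TPM in tumor and 3.95, 4.62 and 3.77 TPM in spleen, a log2 change of 4.36 ± 0.21 (limma adjusted p = 5.5e-24). Maff, a small MAF partner, had 28.7 and 29.6 TPM in tumor and 0.485 to 1.05 TPM in spleen. It passed the filter only through its tumor level. No spleen value of Bach1 or Maff was above the background level of its library. Sqstm1, the autophagy receptor p62 that can hold KEAP1 away from NRF2, had 395 and 398 TPM in tumor and 40.1 to 55.7 TPM in spleen.

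The related repressor Bach2, which preserves quiescent lymphocytes, fell to 5.22 and 8.14 TPM in tumor, against 29.7, 61.9 and 39.0 TPM in spleen (log2 change -2.50 ± 0.23, limma adjusted p = 3.2e-13). Scaled on T cell markers, its log2 change was -0.65 (limma adjusted p = 0.023). Palb2, a DNA repair gene whose protein can bind KEAP1, had 6.54 and 10.1 TPM in tumor and 11.2 to 14.6 TPM in spleen. Only 1 spleen value of Palb2, and no tumor value, was above the background level. When scaled on T cell markers, Palb2 was called higher at 1.24, as were 12658 of all 13498 genes tested. Its log2 change of -0.58 (limma adjusted p = 0.018) missed the threshold when tumor replicate 2 (-0.30, adjusted p = 0.44) or spleen replicate 1 (adjusted p = 0.066) was dropped. With equal totals, 6 of the 17 rose and 6 fell, where 20.4% of all genes tested rose and 51.4% fell. The summed macrophage markers stood at 7300 to 8060 TPM in the same tumor libraries, and their part was not tested.

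Most of the other genes known as NRF2 targets were higher in tumor, with Hmox1, Fth1 and Ftl1 at the top. Of 28 listed, 23 were tested, of which 19 rose and 4 fell. The rises were 82.6% of those tested, beside 40.9% of all genes tested. The median log2 change was 1.52 over those tested and 1.27 over all 28. Hmox1, heme oxygenase 1, had 128 and 171 TPM in tumor and 0.587, 0.519 and 0.677 TPM in spleen, a log2 change of 6.55 ± 0.21 (limma adjusted p = 4.4e-31). Fth1 and Ftl1, the ferritin chains that store iron, reached means of 1660 ± 255 and 2750 ± 238 TPM in tumor (SD, n = 2), against 45.5 ± 7.33 and 92.6 ± 8.62 TPM in spleen (SD, n = 3). Both ferritin genes have pseudogene copies that can share reads, so their levels are uncertain. Hmox1 and 4 others, Mgst1, Trim16, Ptgr1 and Akr1b8, passed the filter only through their tumor level. No spleen value of Hmox1 was above the background level. Beside these values stand the summed macrophage and monocyte markers, 7300 and 8060 TPM in tumor and 62.6 to 80.0 TPM in spleen, whose part was not tested.

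The 4 targets that fell were 17.4% of those tested, beside 18.1% of all genes tested. Ephx1, a microsomal epoxide hydrolase, had 1.15 and 1.75 TPM in tumor and 15.7, 21.8 and 18.7 TPM in spleen, a log2 change of -3.01 ± 0.21 (limma adjusted p = 1.5e-17), and was called lower under each scaling, at -1.45 when scaled on T cell markers. Cbr1, a carbonyl reductase, had 2.67 and 3.76 TPM in tumor and 7.44 to 8.39 TPM in spleen, all under the background level. Its log2 change was -1.08, and 0.58 when scaled on T cell markers. Gsta3 and Gsta4, glutathione transferases, were the other called falls and were also at low levels, with means of 3.02 and 0.76 TPM in tumor and 5.01 and 1.64 TPM in spleen. Gsta4 passed the filter on low values only through its spleen level. Both transferase genes were named after their values were seen.

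Other genes that handle thiols and peroxides were split. Of 37 listed, 31 were tested, of which 16 rose, 9 fell and 6 passed in neither direction. Rises were 51.6% and falls 29.0% of those tested, beside 40.9% and 18.1% of all genes tested. The median log2 change was 0.63 over those tested and 0.37 over all 37. Among the falls, Oplah passed the filter only through its spleen level, with means of 0.79 TPM in tumor and 3.5 TPM in spleen. It was named after its values were seen. Slc3a2 had 416 and 441 TPM in tumor and 17.8, 18.6 and 19.4 TPM in spleen, a log2 change of 4.45 ± 0.20 (limma adjusted p = 1.4e-24). Msrb1, a selenoprotein that repairs oxidized methionine, had 96.2 and 97.6 TPM in tumor and 3.10 to 5.31 TPM in spleen. Prdx5, a peroxiredoxin of mitochondria and peroxisomes, had 222 and 269 TPM in tumor and 11.3 to 14.9 TPM in spleen. No spleen value of Msrb1, and only 1 of 3 of Prdx5, was above the background level.

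Of the sestrin genes, which encode stress proteins that restrain mTORC1, Sesn3 and Sesn1 fell and Sesn2 rose. Sesn3 had 10.8 and 13.6 TPM in tumor and 35.9, 43.1 and 39.9 TPM in spleen (log2 change -1.62, limma adjusted p = 3.1e-09), and Sesn1 had 6.57 and 6.42 TPM in tumor and 16.7 to 24.6 TPM in spleen. Scaled on T cell markers, the log2 changes of Sesn3 and Sesn1 were 0.28 and 0.37. Sesn2, named after its values were seen, had 7.96 and 7.57 TPM in tumor and 0.543 to 0.596 TPM in spleen (log2 change 2.47, limma adjusted p = 2.2e-14). This gene passed the filter only through its tumor level. Only 1 of its tumor values, and none of its spleen values, was above the background level. Txnip, which binds and inhibits thioredoxin, had 166 and 192 TPM in tumor and 80.1, 121 and 96.2 TPM in spleen, a log2 change of 0.86 ± 0.21 (limma adjusted p = 0.00046) that became -0.06 with equal totals and -0.14 with the top 20 genes left out. With equal totals, 10 of the thiol and peroxide genes rose and 16 fell, where 20.4% of all genes tested rose and 51.4% fell, so the falls stood near the share of all genes. Of the peroxiredoxin genes in this list, Prdx3, the mitochondrial form, was not called, with means of 13.2 TPM in tumor and 15.4 TPM in spleen; it was named after its values were seen.

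**Figure D4:**
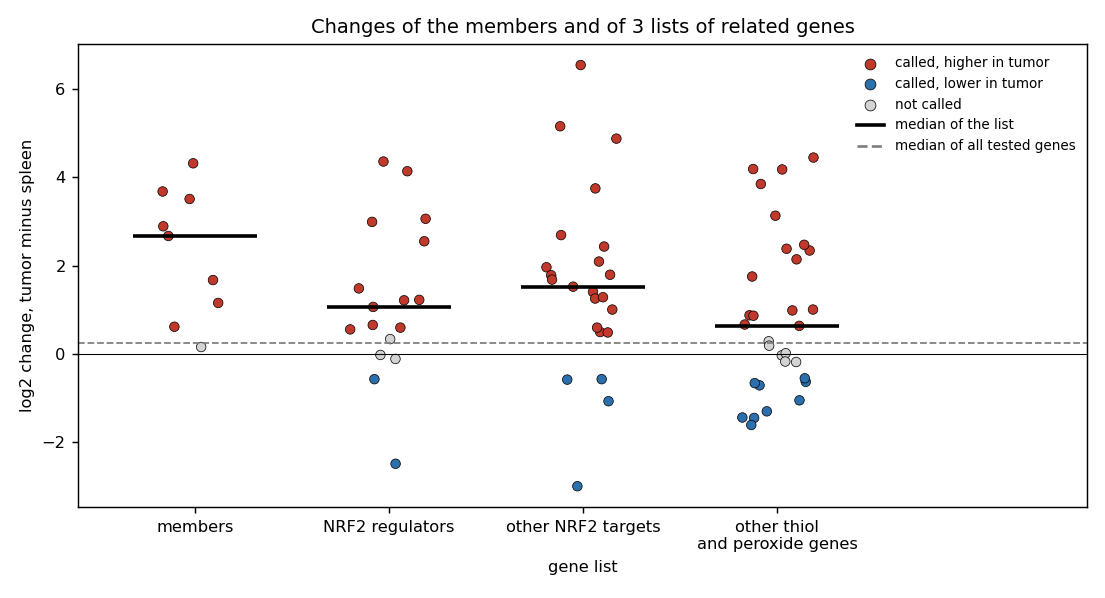
Log2 change, tumor minus spleen, of each tested gene among the 9 antioxidant genes and in 3 lists of related genes, with 1 point per gene, red where called higher in tumor, blue where called lower and grey where not called. The medians are 2.67, 1.06, 1.52 and 0.63 from left to right, beside 0.23 for all tested genes (dashed).

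The gene whose profile lay nearest was sought for each tested member among 12965 genes, as the Euclidean distance between log2(TPM + 1) values centred on their mean over the 5 libraries. With 2 tissues this likeness mostly restates the size of the difference between them. The nearest to Nfe2l2 was Tnfrsf1a (distance 0.11), with 75.7 and 98.3 TPM in tumor and 5.18 to 6.92 TPM in spleen. The nearest to Txnrd1 was Myd88 (0.12), to Txn1 Lgals1 (0.12), to Prdx1 Vat1 (0.07) and to Srxn1 Kdr (0.08). For Slc7a11 it was Mtus1 (0.14), for Gclm Zfyve16 (0.12), for Keap1 Mrpl53 (0.18) and for Gclc Pik3r2 (0.04).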

How the data were processed

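Stranded, ribosomal RNA-depleted libraries of total RNA were sequenced as paired reads, per the labels' protocols. The deposited files give 1 TPM value per gene symbol and library; the unit is taken from values that are not whole and fall short of the full TPM total. Of tools and builds, kallisto, DESeq2 and mm10 appear in the submitters' processing notes, without role or version. No source used here says how transcripts were summed to genes.

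The 12979 genes that averaged 1 TPM or more were fitted on log2(TPM + 1) with limma 3.58.1 in R 4.3.3: tissue as the only term, mean-variance trend, two-sided tests, Benjamini-Hochberg adjustment over all genes tested. Residual degrees of freedom were 3 and prior ones 44.1, so errors are mostly those of genes of like level. Depth is unknown. Named genes were the 10 members, the 3 largest rises and 2 largest falls called in each list, Bach1, Hmox1, Txnip and Slc3a2, and the nearest profiles. The members and lists were chosen with earlier results of these data known. Gene positions are from GENCODE M21 (GRCm38); promoter windows are from RefSeq on GRCm38.p6. Alternatives were 5 scalings, filters, pseudocounts, thresholds, a block for the replicate number, and leaving out each library in turn, with a single tumor library taken to vary as the spleen ones do.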

Additional observations from a re-analysis of the deposited data

How the results depend on the processing

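Of the 9 tested members, Srxn1, Nfe2l2, Txn1, Txnrd1, Prdx1 and Slc7a11 were called higher under all 18 alternatives. Keap1 turned to -0.25 with equal totals and -0.32 with the top 20 genes left out, and Gclc to -0.69, -0.76 and, on the upper quartile, -0.43. Gclc was called lower under those 3, so falls among the members numbered 1 in each. Leaving out 1 library moved Gclc between -0.02 and 0.32. Txnip turned to -0.06 with equal totals and -0.14 with the top 20 genes left out. Scaled on T cell markers, Palb2 was at 1.24, Cbr1 at 0.58, Sesn3 at 0.28 and Sesn1 at 0.37.

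Rises and falls over all genes numbered 2697 and 6789 with equal totals and 3478 and 5545 after upper quartile scaling. They were 2608 and 7496 with the top 20 genes left out, 12658 and 133 scaled on T cell markers, and 2199 and 274 against a 2-fold change. Falls were 1456 with a filter of 5 TPM, 1552 at an adjusted p below 0.01, and 1225 to 2609 with 1 library left out (1225 without tumor replicate 2). Of the 17 regulators, 6 rose and 6 fell with equal totals or with the top 20 genes left out, and 5 rose against a 2-fold change. Falls were 4 on the upper quartile, 1 on T cell markers, with no filter, at the stricter threshold, against a 2-fold change and under the replicate block, and 1 to 2 with 1 library left out. Beside 2199 of all 12979 genes tested, 12 of the 23 other targets tested rose against a 2-fold change. Their falls were 1 there and on T cell markers, 2 with a filter of 5 TPM or the stricter threshold, and 2 to 4 with 1 library left out. Thiol and peroxide genes rose and fell in 10 and 16 cases with equal totals or with the top 20 genes left out. On T cell markers they rose in 28 cases and fell in 0, where 12658 of all 13498 genes tested rose. Against a 2-fold change the numbers were 10 and 1 of the 31 tested, beside 2199 and 274 of all 12979 genes tested. Falls were 14 on the upper quartile and 4 with a filter of 5 TPM. The cause of these shifts was not tested. The 5 ratios kept their sign with each library left out and with 1 TPM added to both values, where the difference for Srxn1 per Prdx1 was 1.66 in place of 2.97 on the log2 scale.

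Replicate numbers 2 and 3 occur in both tissues, but nothing says that they mark the same mouse. Deviations from the tissue means of same-numbered libraries correlated at 0.20 and 0.07 across genes. Libraries with crossed numbers gave -0.07 and -0.20. With 2 tumor libraries the tumor deviations mirror each other, so the crossed values are fixed by the same-numbered ones. With the replicate block, which gives spleen replicate 1 no weight in the estimates, 4877 genes rose and 2013 fell. Keap1 was not called there (log2 change 0.36, limma adjusted p = 0.23), nor was Palb2 (-0.48, adjusted p = 0.092). Only 2 tumor libraries and unknown depth limit all values.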
